A study of Mus musculus with 9 samples.

Results

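IAP elements other than IAPEz-int were taken as all entries of the repeat expression table whose name starts with IAP, IAPEz-int excluded, and were grouped by that name. The rule gave 240 repeat copies of 38385 listed, in 21 of 1042 families, and used no expression value. RNA-seq of poly(A) RNA was compared between 3 lines of mouse embryonic stem cells (ESCs). WT were the unmodified ESCs, 1KO were Dnmt1-/- ESCs, and 1KO+1CI were the same Dnmt1-/- ESCs carrying a transgene for catalytically inactive DNMT1, driven by the CAG promoter and linked to a drug resistance gene. Each line gave 1 library at day 0, as ESCs cultured with LIF on mouse fibroblast feeders, and 1 each at days 2 and 4 of differentiation, which went through embryoid bodies without LIF after most feeders had been removed. The 9 libraries are the whole design, with no replicate of any line and day, and the columns of the transgenic line carry the tag CI6, which the sources used here do not explain and which may name a clone, so differences between the lines and differences between clones cannot be told apart.

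Intracisternal A particle (IAP) elements are endogenous retroviruses of the mouse that still insert into new places in the genome. A full element is an internal part, with the gag and pol genes, between a pair of long terminal repeats (LTRs) that carry the promoter and the polyadenylation signal. Many copies are solitary LTRs. In ESCs and the early embryo they are silenced by DNA methylation, which DNMT1 maintains after replication, and by the histone mark H3K9me3, which SETDB1 places after KAP1 (Trim28) is recruited by zinc finger proteins. Annotation splits each element, so that IAPLTR1 and IAPLTR1a entries are the LTRs that flank IAPEz internal parts, and the other names are further LTR subfamilies and internal parts.

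Of the 240 copies, 171 in 14 families were LTRs and 69 in 7 families were internal parts. IAPLTR1_Mm was the most numerous with 76 copies, followed by IAPLTR1a_Mm with 25, IAPLTR2_Mm with 21, IAPEY4_I-int with 20, IAP-d-int with 17, IAPEY3-int with 13 and IAPLTR2a with 11. IAP1-MM_I-int and IAPLTR2b had 7 copies each, IAPEY4_LTR, IAPEY_LTR and IAPLTR3-int 6 each, IAPLTR2a2_Mm and IAPLTR4 5 each, IAPA_MM-int 4 and IAP1-MM_LTR 3. IAPEy-int, IAPEY3C_LTR and IAPEY3_LTR had 2 copies each, and IAPEY2_LTR and IAPEY5_LTR 1 each. The table lists a copy only with a value above 0 in all 9 libraries, so copies silent in any library are not among them. No filter on low values was applied, and 206 of the 240 reached 1 FPKM (reads scaled to the length of the copy and the size of the library) in at least 1 library.

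The FPKM values of a copy are whole multiples of a step, from which reads and copy length were recovered for 236 of the 240 copies, if 1 step is 1 read. The implied lengths were 288 to 506 bases for LTRs and 127 to 3301 bases for internal parts. A member copy held between 1 and 1076 reads in a library, with a median of 13, out of 20400000 to 28100000 reads per library. The lowest values, most of them in WT, are therefore 1 or 2 reads. IAP copies are near identical in sequence, and how reads with several alignments were placed is not given in the sources used here, so a value of a single copy may hold reads of other copies and the family values are the firmer ones. The knockout check gave Dnmt1 levels of 74.0, 80.4 and 48.5 FPKM in WT at days 0, 2 and 4. In 1KO they were 13.7, 17.4 and 12.3 FPKM, and with the transgene 315, 129 and 158 FPKM.

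IAPLTR1_Mm, the LTR of IAPEz elements, was higher in 1KO than in WT at each day. Its mean over the 76 copies was 1.42, 1.41 and 1.09 FPKM in WT at days 0, 2 and 4. In 1KO it was 8.27, 5.12 and 17.3 FPKM, and in 1KO+1CI 2.59, 5.06 and 22.1 FPKM. The 1KO+1CI library was thus closer to WT than to 1KO at day 0, level with 1KO at day 2 and above 1KO at day 4.

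**Figure D1:**
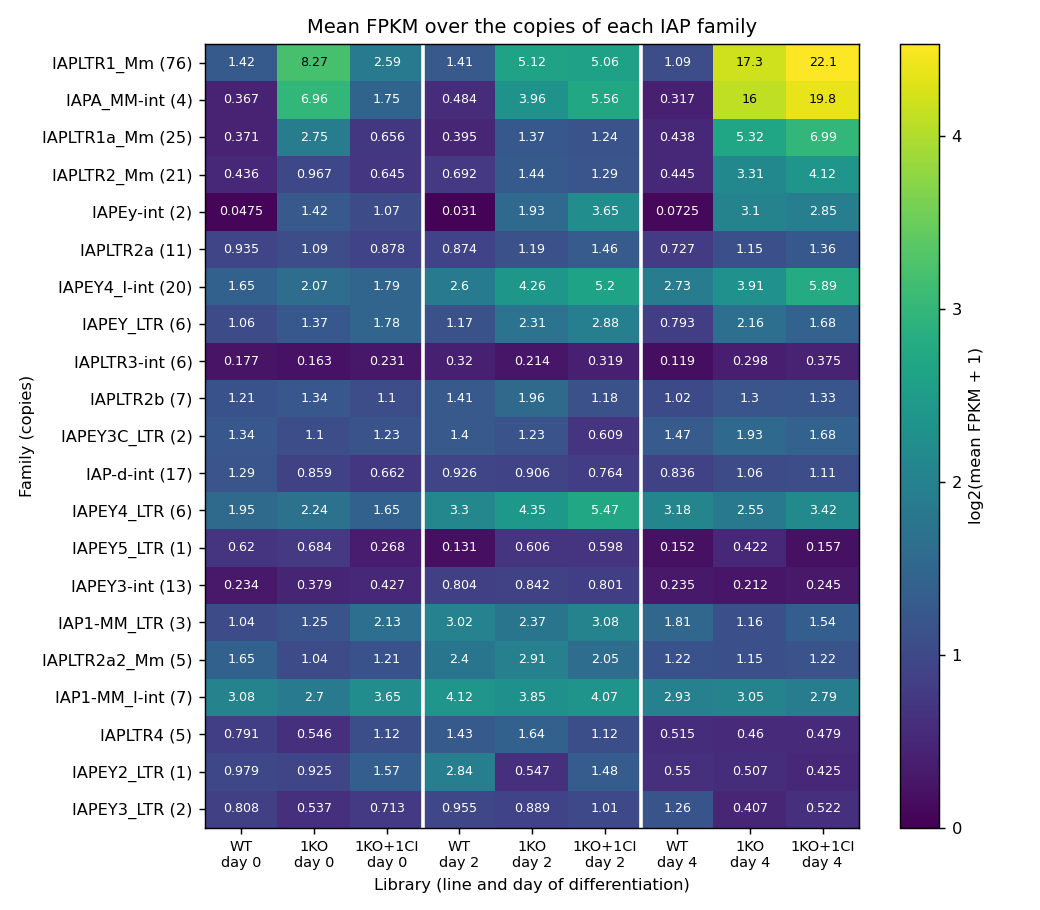
Heatmap of the mean FPKM over copies (printed in each cell, colour as log2 of the mean plus 1) for the 21 families (rows, number of copies in brackets, in order of their correlation with IAPEz-int over the 9 libraries) in each library (columns). The first 4 rows run from dark in WT to bright in 1KO and 1KO+1CI at day 4, where IAPLTR1_Mm reached 17.3 and 22.1 FPKM, while most lower rows differ more between days than between lines.

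Summed over copies, IAPLTR1_Mm had 873 reads in WT and 6791 in 1KO at day 0, a depth-corrected ratio of 5.72 (95% Clopper-Pearson interval 5.33 to 6.14, counting error only). The same ratio was 3.57 (3.33 to 3.84) at day 2 and 15.6 (14.4 to 16.8) at day 4. The ratio of 1KO+1CI to 1KO was 0.313 (0.297 to 0.330) at day 0, 0.985 (0.937 to 1.03) at day 2 and 1.28 (1.25 to 1.31) at day 4. Only the day 2 interval of that last ratio includes 1, but none of these intervals covers the spread between cultures, which was not measured, and in bulk RNA a larger share of expressing cells and more RNA per cell cannot be told apart.

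Relative to their median, the copies of IAPLTR1_Mm were spread more widely in WT than in 1KO. In FPKM their range was wider in 1KO. The quartiles at day 0 were 0.377 and 1.70 FPKM in WT and 6.24 and 10.4 FPKM in 1KO. Low WT copies rest on few reads, so counting error adds to their relative spread. In WT the lowest, median and highest copy had 0.120, 0.831 and 6.94 FPKM at day 0, 0.104, 0.961 and 6.17 FPKM at day 2, and 0.117, 0.657 and 7.04 FPKM at day 4. In 1KO they had 0.477, 8.92 and 16.4 FPKM at day 0, 0.334, 4.91 and 12.7 FPKM at day 2, and 1.18, 17.2 and 41.1 FPKM at day 4. In 1KO+1CI they had 0.197, 2.35 and 7.04 FPKM at day 0, 0.625, 4.91 and 11.4 FPKM at day 2, and 2.04, 22.3 and 52.2 FPKM at day 4. Ranges of the lines overlapped at each day, while the quartiles of WT and 1KO did not overlap at any day.

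The same copies tended to be high in both mutant libraries, and less so in WT and 1KO. Spearman's rho over the 76 copies was 0.404 between WT and 1KO at day 0, 0.695 between 1KO and 1KO+1CI at day 0, and 0.904 between 1KO and 1KO+1CI at day 4. It was 0.813 between 1KO at day 0 and at day 4. Copies share a library, a family sequence and the placing of reads, so these values are descriptions. The copy with the highest mean, dup41 (372 bases), was also high in WT, at 5.21, 6.17 and 7.04 FPKM at days 0, 2 and 4, against 15.3, 12.2 and 41.1 FPKM in 1KO and 6.97, 10.0 and 52.2 FPKM in 1KO+1CI.

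**Figure D2:**
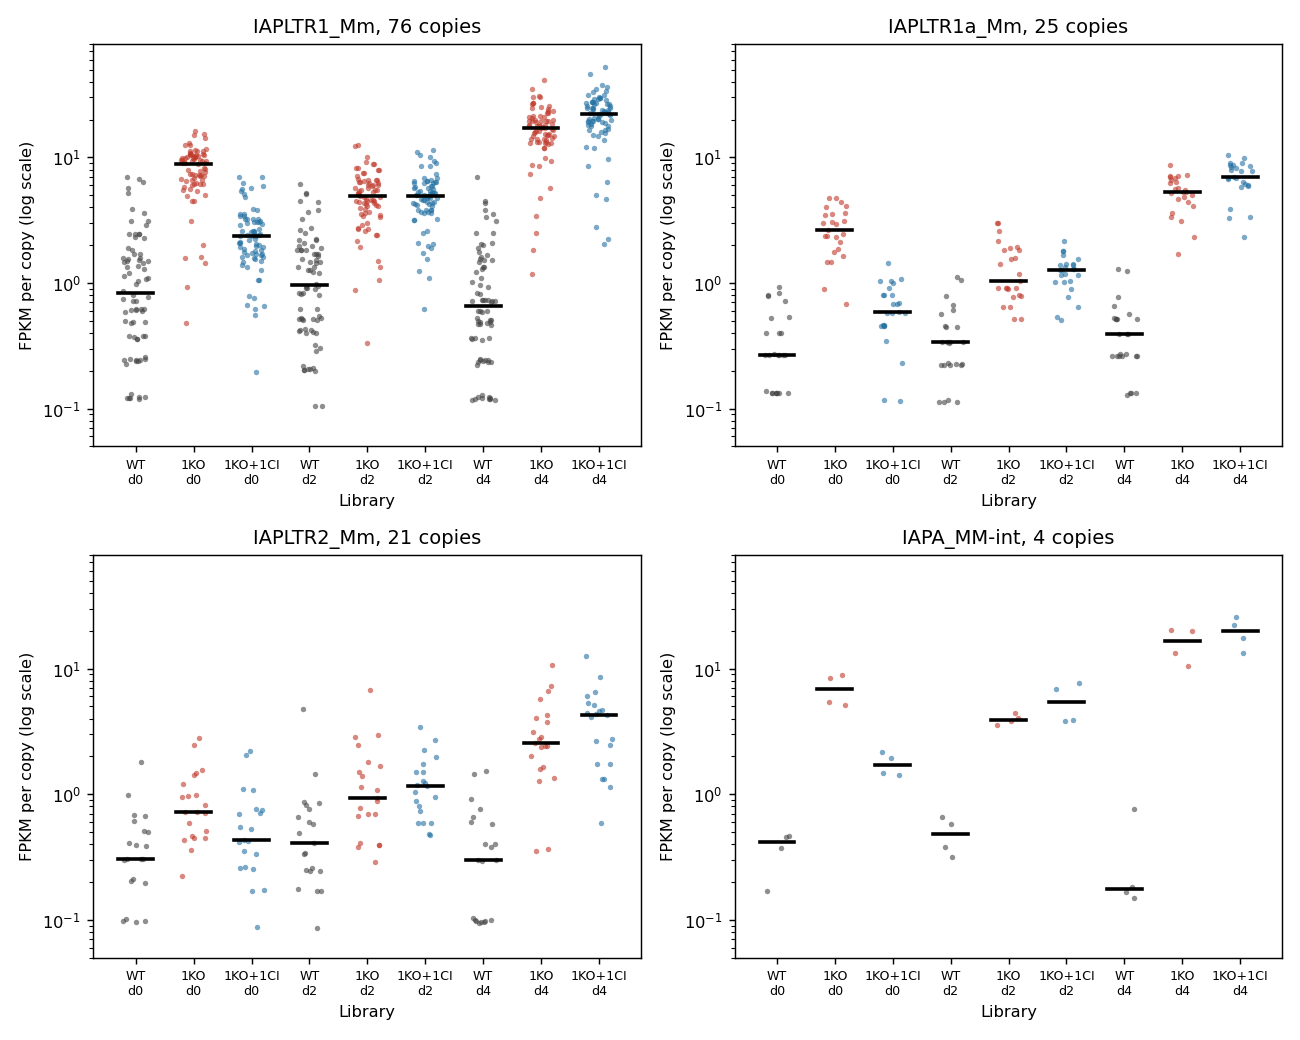
FPKM of each copy (points, log scale) by library for IAPLTR1_Mm, IAPLTR1a_Mm, IAPLTR2_Mm and IAPA_MM-int, with the median over copies as a bar; WT is grey, 1KO red and 1KO+1CI blue. The IAPLTR1_Mm median went from 0.831 FPKM in WT to 8.92 in 1KO at day 0, with 2.35 in 1KO+1CI, and at day 4 both mutant libraries stood above WT in all 4 families.

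Most of the largest positive differences of single copies from WT to 1KO were in IAPLTR1_Mm. At day 0 dup17 had 0.248, 10.7 and 1.39 FPKM in WT, 1KO and 1KO+1CI, that is 2, 118 and 13 reads. The next were dup45 and dup46, both at 0.121 FPKM in WT, with 9.50 and 9.32 FPKM in 1KO. At day 2 the copies dup3 and dup2 had 0.513 and 0.207 FPKM in WT and 6.76 and 5.16 FPKM in 1KO. At day 4 dup70 had 0.117, 19.9 and 22.6 FPKM in the same order, with 1 read in WT, and dup11 had 0.124 FPKM in WT and 19.4 in 1KO. In WT these 7 copies held 1 to 5 reads.

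Copy dup17 of IAPLTR1_Mm also had the largest negative difference from 1KO to 1KO+1CI at day 0, -2.30 on the log2(FPKM + 1) scale. It was followed by 1 of the 2 entries numbered dup38, which went from 10.4 to 1.5 FPKM, and by dup14, from 11.3 to 1.87 FPKM. The comparisons with WT and with 1KO+1CI share the 1KO library and so its counting error.

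IAPLTR1a_Mm, a related LTR subfamily of IAPEz elements, had the same order of the lines at a lower level. Its mean over 25 copies was 0.371, 0.395 and 0.438 FPKM in WT at days 0, 2 and 4, 2.75, 1.37 and 5.32 FPKM in 1KO, and 0.656, 1.24 and 6.99 FPKM in 1KO+1CI. At day 0 the WT copies lay between 0.132 and 0.926 FPKM and the 1KO copies between 0.680 and 4.78 FPKM, with 1KO above WT in 25 of 25 copies at all 3 days. In reads, 1KO had 7.42 times WT (5.79 to 9.65) at day 0, 3.47 times (2.71 to 4.47) at day 2 and 12.2 times (9.73 to 15.4) at day 4. The ratio of 1KO+1CI to 1KO was 0.238 (0.197 to 0.285) at day 0, 0.907 (0.758 to 1.08) at day 2 and 1.31 (1.21 to 1.42) at day 4. The copy with the highest mean, dup24 (337 bases), had 0.720, 4.02 and 0.994 FPKM in WT, 1KO and 1KO+1CI at day 0 and 0.566, 5.48 and 10.5 FPKM at day 4. Over the 25 copies, Spearman's rho between WT and 1KO at day 0 was -0.156. It was 0.231 between WT at day 0 and at day 4, and 0.723 between 1KO and 1KO+1CI at day 0. The 25 copies together held 69 reads in WT at day 0, so their order in WT rests on few reads.

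IAPLTR2_Mm, another LTR subfamily, differed less between lines at day 0 and more at day 4. Its mean over 21 copies was 0.436, 0.692 and 0.445 FPKM in WT at days 0, 2 and 4, 0.967, 1.44 and 3.31 FPKM in 1KO, and 0.645, 1.29 and 4.12 FPKM in 1KO+1CI. In reads, 1KO to WT was 2.25 (1.77 to 2.89) at day 0, 2.13 (1.75 to 2.58) at day 2 and 7.54 (6.08 to 9.44) at day 4. For 1KO+1CI against 1KO it was 0.660 (0.538 to 0.806) at day 0, 0.899 (0.762 to 1.06) at day 2 and 1.24 (1.13 to 1.37) at day 4. The ratio at day 0 therefore left a higher part of the 1KO level than in IAPLTR1_Mm and IAPLTR1a_Mm, with read intervals that do not overlap. However, 1KO was also nearer WT in IAPLTR2_Mm at day 0, at 2.25 times against 5.72 times in IAPLTR1_Mm. A smaller part of its 1KO level thus lay above WT, and the ratios do not take this into account.

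Copies of IAPLTR2_Mm were uneven. The copy with the highest mean, dup72 (497 bases), had 0.195, 2.79 and 1.09 FPKM in WT, 1KO and 1KO+1CI at day 0, 0.494, 2.86 and 1.03 FPKM at day 2, and 0.575, 10.6 and 12.6 FPKM at day 4. The copy dup35 had the largest positive difference from WT to 1KO of all 240 copies at day 2, from 0.259 to 6.78 FPKM (3 and 68 reads), and was at 2.26 FPKM in 1KO+1CI. In 1KO+1CI against 1KO, dup29 had the largest positive difference at day 2, from 0.936 to 3.41 FPKM. At day 4 dup30 had the largest positive difference, from 1.27 to 4.56 FPKM, and dup60 was among the 3 largest negative differences, from 7.34 to 4.25 FPKM.

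The other LTRs of the second group differed less between the lines. IAPLTR2a had means of 0.935, 1.09 and 0.878 FPKM in WT, 1KO and 1KO+1CI at day 0 and 0.727, 1.15 and 1.36 FPKM at day 4, a ratio of 1KO to WT of 1.57 (1.16 to 2.14) at day 4. Its top copy dup16 had 3.13, 1.45 and 2.80 FPKM at day 0, and dup28 had the largest positive difference of all 240 copies from 1KO to 1KO+1CI at day 0, from 0.251 to 1.28 FPKM. IAPLTR2b had means between 1.02 and 1.96 FPKM over the 9 libraries, with no ratio of 1KO to WT whose interval excluded 1 at days 0 and 4 and one of 1.43 (1.04 to 1.95) at day 2. Its copy dup54 went from 3.64 to 0.624 FPKM between 1KO and 1KO+1CI at day 2 and from 0.734 to 2.63 FPKM at day 4, so it was both the second largest negative difference and the second largest positive difference, on 4 to 23 reads. The top copy dup46 ranged from 0.979 to 4.04 FPKM and had the largest negative difference from 1KO to 1KO+1CI at day 4, from 2.83 to 1.01 FPKM. It held 56.8% of the summed FPKM of IAPLTR2b in WT at day 4. Without dup46 the ratio of 1KO to WT was 1.30 (0.916 to 1.85) at day 2. At day 4 it was 2.06 (1.21 to 3.64), from 21 reads in WT and 47 in 1KO. The day whose interval excluded 1 thus depended on that copy.

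IAPA_MM-int, an internal part, had larger ratios of 1KO to WT than IAPLTR1_Mm, with read intervals that did not overlap at any day. Its 4 copies averaged 0.367, 0.485 and 0.317 FPKM in WT at days 0, 2 and 4, 6.96, 3.96 and 16.0 FPKM in 1KO, and 1.75, 5.56 and 19.8 FPKM in 1KO+1CI. WT and 1KO did not overlap at any day: the WT copies lay between 0.148 and 0.767 FPKM over the 3 days and the 1KO copies between 3.54 and 20.3 FPKM. The 1KO+1CI copies, 1.43 to 2.16 FPKM at day 0, were between the other lines there, and at day 4 each of the 4 was above its 1KO value. In reads, 1KO to WT was 18.8 (9.72 to 41.6) at day 0, from 9 reads in WT and 230 in 1KO, and 49.1 (24.7 to 114) at day 4, from 8 and 426 reads. The ratio of 1KO+1CI to 1KO was 0.250 (0.180 to 0.342) at day 0, 1.40 (1.07 to 1.83) at day 2 and 1.24 (1.08 to 1.41) at day 4. Copy dup3 (283 bases) was among the 3 largest positive differences at day 4, from 0.168 to 20.3 FPKM.

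The 2 copies of IAPEy-int differed, and dup7 was the one with a difference of more than 1 between WT and 1KO. It had 0.052, 0.044 and 0.103 FPKM in WT at days 0, 2 and 4, 2.80, 3.78 and 6.11 FPKM in 1KO, and 2.08, 7.2 and 5.51 FPKM in 1KO+1CI. The other copy, dup26, stayed between 0.018 and 0.196 FPKM in all 9 libraries. Unlike the IAPLTR1 copies, dup7 kept most of its 1KO level in 1KO+1CI at day 0, a difference of -0.31 against one of -1.37 for the IAPLTR1_Mm family on the log2(FPKM + 1) scale. Reads could not be recovered for dup7, and a single copy without a replicate gives no test of that contrast.

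Copies of IAPEY4_I-int, an internal part of the IAPE group, ranged widely in WT with no clear division between them, and those named here were chosen after their values were seen. The copy dup2 (824 bases), the highest of all 240 by mean, had 16.1, 12.8 and 14.5 FPKM in WT, 1KO and 1KO+1CI at day 0, 28.0, 44.2 and 61.0 FPKM at day 2, and 32.4, 24.1 and 36.5 FPKM at day 4. It was high in all lines, as were dup5, at 2.32 to 14.4 FPKM, and dup4, at 1.54 to 7.52 FPKM. Copy dup12 lay between these and the low copies, with 2.02, 2.28 and 2.32 FPKM at day 0 and 1.65, 5.41 and 5.95 FPKM at day 4 in the order above. Copy dup8 (501 bases) was lower in WT, at 0.194, 0.654 and 0.190 FPKM at days 0, 2 and 4, against 1.64, 2.17 and 3.60 FPKM in 1KO and 1.34, 2.14 and 5.78 FPKM in 1KO+1CI. Copy dup11 had 0.106, 3.54 and 6.36 FPKM in the same order at day 4, and dup18 had 0.374, 6.22 and 11.96 FPKM there. In all, 12 of the 20 copies were above WT in 1KO at all 3 days, and 5 were below it at day 0.

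**Figure D3:**
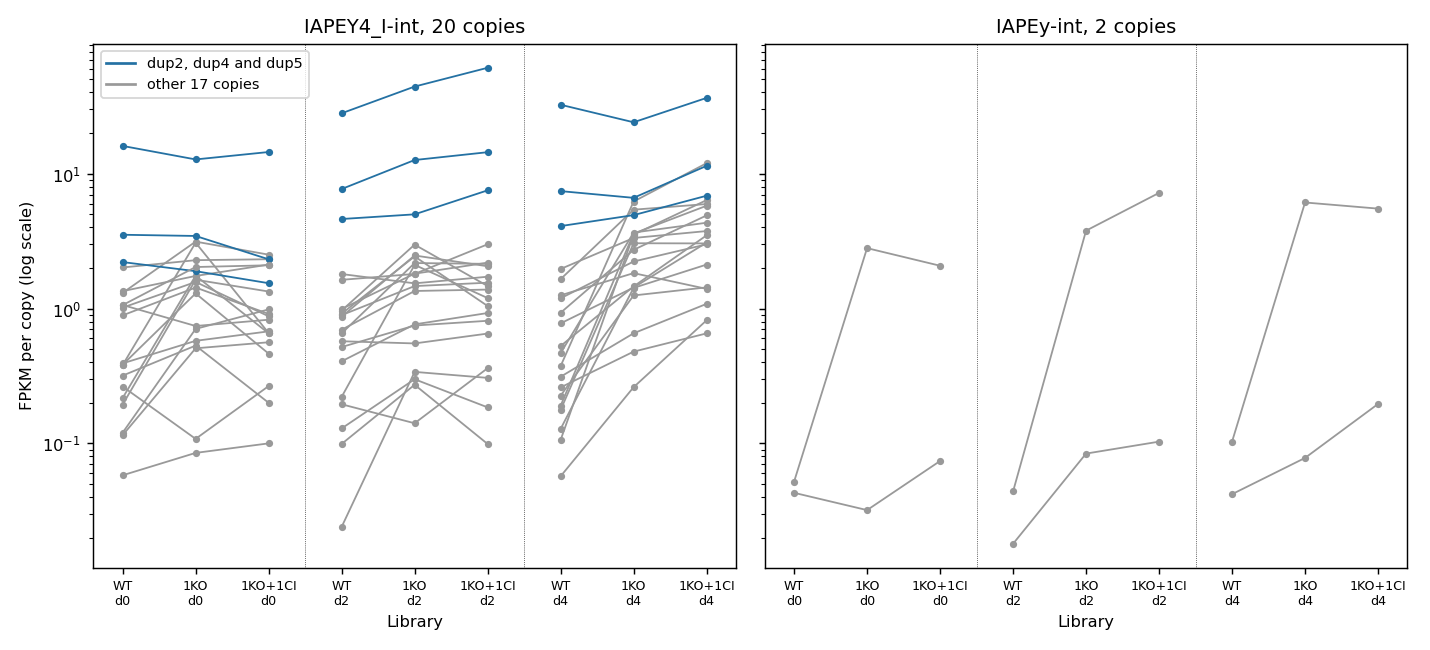
FPKM of each copy (log scale) of IAPEY4_I-int (left) and IAPEy-int (right) in the 9 libraries, with the 3 libraries of a day joined by a line per copy. The copies dup2, dup4 and dup5 of IAPEY4_I-int (blue) were high in WT as well, with dup2 at 16.1 FPKM at day 0, while the other 17 copies (grey) were each higher in 1KO than in WT at day 4. In the right panel dup7 is the upper line, at 6.11 FPKM in 1KO at day 4.

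Because dup2 made up 48.8% of the summed FPKM of IAPEY4_I-int in WT at day 0 and 30.8% in 1KO at day 4, the family mean reflects that copy. The mean was 1.65, 2.07 and 1.79 FPKM at day 0, 2.6, 4.26 and 5.2 FPKM at day 2, and 2.73, 3.91 and 5.89 FPKM at day 4 in WT, 1KO and 1KO+1CI. In reads, 1KO to WT was 1.13 (1.03 to 1.25), 1.51 (1.41 to 1.63) and 1.27 (1.18 to 1.37) at days 0, 2 and 4. Without dup2 it was 1.36 (1.20 to 1.53), 1.46 (1.33 to 1.61) and 1.74 (1.57 to 1.91), so day 4 then had the largest ratio. IAPEY4_LTR had means of 1.95, 2.24 and 1.65 FPKM at day 0, 3.30, 4.35 and 5.47 FPKM at day 2 and 3.18, 2.55 and 3.42 FPKM at day 4, a profile with day 2 as the highest day in each line. Its top copy dup5 had 3.62, 7.97 and 3.60 FPKM at day 0, and dup8 went from 4.01 FPKM in WT to 1.58 in 1KO. At day 4 dup2 of IAPEY4_LTR went from 3.01 to 1.26 FPKM.

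IAPEY_LTR averaged 1.06, 1.17 and 0.793 FPKM in WT at days 0, 2 and 4, 1.37, 2.31 and 2.16 FPKM in 1KO, and 1.78, 2.88 and 1.68 FPKM in 1KO+1CI. The ratio of 1KO to WT was 1.28 (0.893 to 1.85), 1.96 (1.43 to 2.70) and 2.69 (1.85 to 4.00) on 38 to 111 reads. Its copy dup4 (383 bases) held 59.3% to 76.3% of the summed FPKM of the family at days 0 and 2 and 34% to 49.6% at day 4, with 1.62, 6.43 and 4.23 FPKM in WT, 1KO and 1KO+1CI at day 4.

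IAP-d-int had a lower mean in 1KO than in WT at day 0. Its 17 copies averaged 1.29, 0.859 and 0.662 FPKM in WT, 1KO and 1KO+1CI, with a ratio of 1KO to WT of 0.712 (0.602 to 0.842). Copy dup13 held 36.4% of the WT sum, and without it the difference on the scale of log2(mean FPKM + 1) was -0.12 in place of -0.30 and the ratio 0.798 (0.665 to 0.959). Over all copies of the table the median difference at that day was -0.10. In 7 of the 17 copies 1KO was above WT at day 0, and in 42.1% of all copies, so the share was near that background. At day 4 the ratio was 1.28 (1.06 to 1.56), with means of 0.836, 1.06 and 1.11 FPKM. Copy dup13 (364 bases) had the largest negative difference of all 240 copies from WT to 1KO at day 0, from 7.99 to 3.03 FPKM (60 and 31 reads), and was at 3.10 FPKM in 1KO+1CI. Copy dup34 (1030 bases) went from 6.48 FPKM in WT to 2.39 in 1KO at day 2, and dup28 from 1.28 FPKM in 1KO to 0.214 in 1KO+1CI at day 4.

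In IAP1-MM_I-int, an internal part, no counting interval of 1KO to WT excluded 1. It averaged between 2.70 and 4.12 FPKM in all 9 libraries, and its ratios of 1KO to WT were 0.929 (0.821 to 1.05), 0.937 (0.840 to 1.04) and 1.03 (0.906 to 1.17) at days 0, 2 and 4. Its top copy dup14 (1173 bases) lay between 7.89 and 10.9 FPKM. The 1KO+1CI library was above 1KO at day 0 in 7 of 7 copies, against 57.8% of all copies, a ratio of 1.35 (1.21 to 1.52). It was above WT in 4 of 7 copies, against 49.3% of all copies, a ratio of 1.26 (1.12 to 1.42). Without dup14 these day 0 ratios were 1.60 (1.36 to 1.89) to 1KO and 1.17 (0.994 to 1.37) to WT, the latter including 1. The day 0 ratio of 1KO to WT without dup14 was 0.729 (0.613 to 0.868). Copy dup10 went from 2.72 to 5.57 FPKM between 1KO and 1KO+1CI at day 0, and dup1 went from 1.92 to 0.539 FPKM between WT and 1KO.

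IAP1-MM_LTR, with 3 copies, averaged 1.04 to 3.08 FPKM. Its dup12 went from 4.36 to 1.95 FPKM between WT and 1KO at day 2, dup1 went from 1.38 to 3.93 FPKM between 1KO and 1KO+1CI at day 2, and dup2 had 1.65, 0.457 and 1.87 FPKM in WT, 1KO and 1KO+1CI at day 4. IAPLTR3-int was among the lowest families, at 0.119 to 0.375 FPKM, with its copy dup5 (1070 bases) at 0.078 to 0.575 FPKM. Its ratio of 1KO to WT was 1.07 (0.660 to 1.74) at day 0, 0.666 (0.434 to 1.01) at day 2 and 2.64 (1.60 to 4.51) at day 4, the last from 22 reads in WT and 63 in 1KO.

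IAPEY3-int, IAPLTR4, IAPLTR2a2_Mm and IAP1-MM_LTR had higher means at day 2 than at days 0 and 4 in WT and 1KO. So did IAP1-MM_I-int, IAPLTR2b, IAPEY_LTR and IAPEY4_LTR. IAPEY3-int averaged 0.234, 0.379 and 0.427 FPKM in WT, 1KO and 1KO+1CI at day 0, 0.804, 0.842 and 0.801 FPKM at day 2 and 0.235, 0.212 and 0.245 FPKM at day 4. Its copy dup96 (604 bases) had 0.481, 1.30 and 1.66 FPKM at day 0, 3.93, 3.76 and 3.32 FPKM at day 2 and 0.473, 0.218 and 0.406 FPKM at day 4, so that day 2 stood above the other days in each line. IAPLTR2a2_Mm averaged 1.65, 1.04 and 1.21 FPKM at day 0, 2.40, 2.91 and 2.05 FPKM at day 2, and 1.22, 1.15 and 1.22 FPKM at day 4. Its copy dup13 had 4.95, 4.85 and 4.78 FPKM at day 2 and 2.59 FPKM or less at the other days, and dup48 went from 4.67 FPKM in 1KO to 0.856 in 1KO+1CI at day 2. IAPLTR4 averaged 1.43, 1.64 and 1.12 FPKM at day 2 and 0.460 to 0.515 FPKM at day 4, and its dup16 went from 0.519 FPKM in 1KO to 1.71 in 1KO+1CI at day 0.

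Day 2 was also high for repeats in general. Scaling factors over all 38385 copies were 1.19 in all 3 day 2 libraries and 0.918 to 1.03 in the rest, against 0.982 to 1.02 over genes. In a limma fit of line and day, day 2 against the mean of days 0 and 4, a contrast added after the data were seen, called 10 of 240 copies higher and 0 lower at an adjusted p under 0.05. All copies gave 5.82% higher and 0.623% lower, so the members were not above the background. The 10 calls were 4 of IAPEY3-int, 2 of IAPEY4_LTR and 1 each of IAP1-MM_I-int, IAPEY4_I-int, IAPLTR2a2_Mm and IAPLTR4, and after scaling by those factors 2 calls were left.

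The smallest families rest on few reads. IAPEY3C_LTR had 8 to 27 reads in a library and averaged 0.609 to 1.93 FPKM. IAPEY3_LTR went from 1.26 FPKM in WT to 0.407 in 1KO at day 4, on 17 and 6 reads, a ratio of 0.326 (0.105 to 0.865), and its dup4 went from 2.10 to 0.553 FPKM. The only copy of IAPEY2_LTR, dup11 (346 bases), went from 2.84 FPKM in WT to 0.547 in 1KO at day 2, on 24 and 4 reads. The only copy of IAPEY5_LTR had 1 to 6 reads in each library.

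Over all 240 copies, 1KO was higher than WT by more than 1 on the log2(FPKM + 1) scale in 97 copies at day 0, 75 at day 2 and 132 at day 4, and lower in 1, 2 and 0. Of all 38385 copies, 4.9%, 5.74% and 6.77% were higher and 6.82%, 5.09% and 3.76% lower. The median difference of the members was 0.55, 0.53 and 1.38, against -0.10, -0.05 and -0.01 over all copies. Of the 97 copies higher at day 0, 67 were IAPLTR1_Mm and 19 IAPLTR1a_Mm, and the rest were 4 of IAPA_MM-int, 3 of IAPEY4_I-int, 3 of IAPLTR2_Mm and 1 of IAPEy-int. At day 4 the 132 included 75 of 76 IAPLTR1_Mm, 25 of 25 IAPLTR1a_Mm, 17 of 21 IAPLTR2_Mm and 7 of 20 IAPEY4_I-int. In 149 copies 1KO was above WT at all 3 days by any margin, against 12.4% of all copies. There are no replicates, so these counts have no test.

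Against 1KO, 1KO+1CI was lower by more than 1 in 84 copies at day 0, 5 at day 2 and 0 at day 4, and higher in 0, 2 and 2. The background was 3.69%, 3.77% and 4.2% lower and 4.57%, 3.8% and 3.39% higher, so only the lower copies at day 0 exceeded it. Of these 84, 62 were IAPLTR1_Mm, 16 IAPLTR1a_Mm, 4 IAPA_MM-int and 1 each IAPEY4_I-int and IAPLTR2b. The median difference of the members was -0.43, 0.02 and 0.24 at days 0, 2 and 4, against 0.08, -0.01 and 0.01 over all copies. In 114 copies 1KO+1CI lay between WT and 1KO at day 0 with 1KO highest, against 13.7% of all copies. In 184 copies 1KO+1CI was above 1KO at day 4 by any margin, against 50.4% of all copies.

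**Figure D4:**
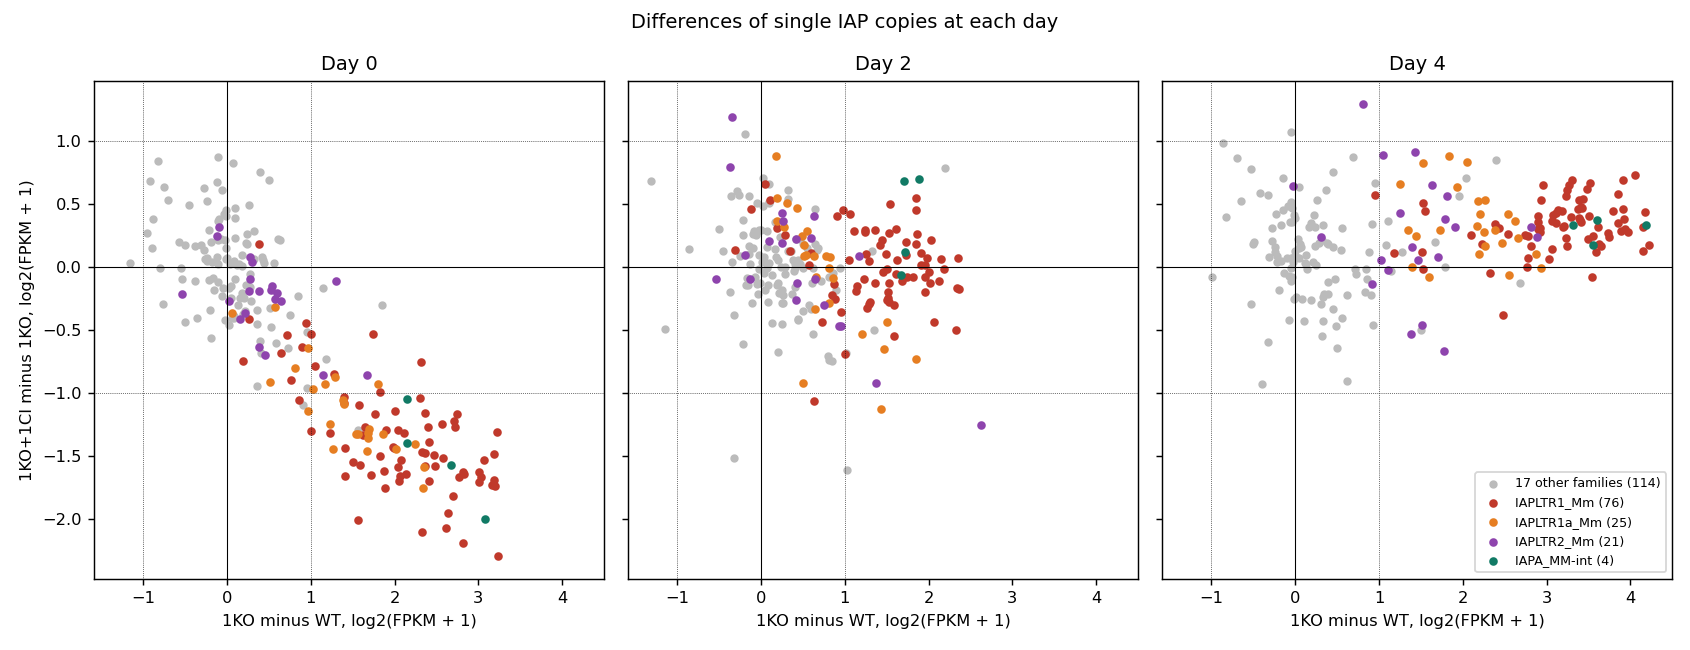
Difference of 1KO minus WT (x axis) and of 1KO+1CI minus 1KO (y axis), in log2(FPKM + 1), for each of the 240 copies at days 0, 2 and 4; dotted lines mark differences of 1 and -1. At day 0 the IAPLTR1_Mm, IAPLTR1a_Mm and IAPA_MM-int copies lie at the lower right, at day 2 around 0 on the y axis, and at day 4 mostly just above it; both axes use the 1KO library, so errors in it move points along the falling diagonal.

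Against WT, 1KO+1CI was higher by more than 1 in 30 copies at day 0, 69 at day 2 and 137 at day 4, and lower in 2 at each day. The background was 5.37%, 6.03% and 6.81% higher and 5.81%, 5.58% and 4.6% lower. The median difference was 0.26, 0.59 and 1.54. The 1KO+1CI libraries enter both this comparison and the previous one. At day 0, division by the factors over all copies would shift differences of 1KO from WT by 0.16 upward and those of 1KO+1CI from 1KO by 0.15 downward on the log2 scale, and the counts at that day stayed within 1.5 times under this scaling.

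Within a line, the day 4 level of IAPLTR1_Mm was 2.09 times (2.03 to 2.15) that of day 0 in 1KO and 8.51 times (8.10 to 8.95) in 1KO+1CI, but 0.768 times (0.694 to 0.850) in WT. At day 2 it was 0.619 times (0.594 to 0.646) the day 0 level in 1KO and 1.95 times (1.84 to 2.06) in 1KO+1CI. IAPA_MM-int went from day 0 to day 4 by 2.29 times (1.94 to 2.69) in 1KO and 11.3 times (8.39 to 15.5) in 1KO+1CI.

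The only test the design allows used the 3 days of a line as its repeats. The limma fit of log2(FPKM + 1) on line and day has 4 residual degrees of freedom, and its error is the departure of the lines from parallel profiles over days, not the spread between cultures. For 1KO against WT it called 51 of 240 copies higher and 0 lower at an adjusted p under 0.05, against 1.12% higher and 0.0599% lower of all copies. These were 43 of IAPLTR1_Mm, 4 of IAPA_MM-int, 3 of IAPLTR1a_Mm and 1 of IAPEy-int. The lowest adjusted p was 0.0190, shared by a copy of IAPLTR1_Mm and IAPEy-int dup7, which was higher by 2.25 ± 0.36 (SE) and higher in 1KO at 3 of 3 days. The 4 IAPA_MM-int copies were higher by 2.39 to 2.98, at adjusted p of 0.0202 to 0.0288. These calls depend on the fit: 0 copies were called without day 0, without day 4, or when the variance trend was left out of limma, and 34 without day 2.

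For 1KO+1CI against 1KO the same limma fit called 0 members in either direction, and 0.00261% of all copies in each; at an unadjusted p under 0.05 it gave 0 higher and 1 lower, against 2.57% and 1.94% of all copies. IAPLTR1_Mm had a negative difference at day 0 and a positive one at day 4. The mean over days, which this contrast tests, had a median of -0.36 over its 76 copies. The change of the difference between days is part of the error of the fit, so the count does not show that the lines were alike. For 1KO+1CI against WT it called 21 higher, 18 of IAPLTR1_Mm, 2 of IAPA_MM-int and IAPEy-int dup7, and 0 lower, against 0.727% and 0.0625% of all copies. That count was 0 without any 1 of the 3 days.

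The profile over the 9 libraries was set beside that of IAPEz-int, the internal part with 426 listed copies, whose mean was 0.727, 7.14 and 2.26 FPKM in WT, 1KO and 1KO+1CI at day 0, 0.792, 4.70 and 4.62 FPKM at day 2, and 0.563, 17.1 and 23.4 FPKM at day 4. Pearson's r was taken between log2(mean FPKM over copies + 1) of a family and that of IAPEz-int. It was 0.998 for IAPLTR1_Mm, 0.995 for IAPA_MM-int, 0.978 for IAPLTR1a_Mm, 0.941 for IAPLTR2_Mm and 0.867 for IAPEy-int. It then dropped to 0.761 for IAPLTR2a and 0.66 for IAPEY4_I-int, and was -0.79 for IAPEY3_LTR. The families share libraries and, for IAPLTR1 and IAPLTR1a, the same elements and possibly reads. IAPLTR1_Mm had 1.95 times the IAPEz-int level in WT at day 0 and 1.16 times in 1KO, and in both mutants at day 4 the levels were close, at 1.01 and 0.943 times. In MMERVK10C-int and ETnERV-int, internal parts of other ERVK families, 1KO differed from WT at day 4 by 0.42 and 0.29 on the log2 scale of family means plus 1, against 3.13 for IAPLTR1_Mm. It was 0.18 for the ERVK LTR RLTR10C, and 0.60 and 0.44 for MERVL-int and its LTR MT2_Mm. That scale understates changes of low families. The MMERVK10C-int mean was 0.558, 0.933 and 0.803 FPKM in WT at days 0, 2 and 4 and 1.04, 1.90 and 1.41 FPKM in 1KO. Its median over 92 copies at day 4 was 0.270 FPKM in WT and 0.728 in 1KO, while its highest copy in WT had 16.8 FPKM.

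Known repressors of IAP elements were compared on the same scale over genes. Of 6 genes of DNA methylation, Dnmt1 was lower by more than 1 in 1KO than in WT at day 0 and Dnmt3l, a cofactor of the de novo enzymes, was higher, at 41.3, 203 and 203 FPKM in WT, 1KO and 1KO+1CI. At day 2 Dnmt1 was the 1 gene lower, and at day 4 Dnmt1 and Dnmt3a were lower, with Dnmt3a at 39.7, 18.3 and 15.5 FPKM in WT, 1KO and 1KO+1CI. None of 12 genes of the H3K9 and KAP1 pathway and none of the 3 Tet genes passed 1 in either direction at any day in 1KO against WT or 1KO+1CI against 1KO. Trim28 had 453, 679 and 588 FPKM at day 0 and Setdb1 26.3, 34.2 and 32.5 FPKM. Over all 15074 genes, 2.24%, 1.6% and 1.67% were higher and 1.55%, 0.663% and 0.59% lower in 1KO at days 0, 2 and 4. Between 1KO+1CI and 1KO, Dnmt1 was the only gene of these lists past 1, higher at each day, against 0.179%, 0.153% and 0.624% of genes higher and 0.239%, 0.186% and 0.292% lower.

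Markers of other cell states differed with line and day as well. Of the 6 ESC markers, Pou5f1 lay at 632 to 1008 FPKM in all libraries, while others were lower at day 4. In WT at days 0 and 4, Klf4 had 30.3 and 0.749 FPKM, Esrrb 96.5 and 3.81, and Zfp42 266 and 31.6. The lines did not differ in 1 direction at day 4. Nanog had 56.8, 171 and 157 FPKM in WT, 1KO and 1KO+1CI there. Esrrb, at 3.81, 9.13 and 11.4 FPKM, and Klf4, at 0.749, 1.23 and 2.46, were also higher in both mutant libraries. Lower in both were Zfp42, at 31.6, 13.9 and 14.5 FPKM, Sox2, at 83.5, 59.1 and 61.1, and Pou5f1, at 1008, 745 and 650. For 1KO against WT, 2 of the 6 passed 1 upward and 1 downward. Of 7 feeder fibroblast markers 6 were listed, Lum being the exception, and their summed level was 89.3, 173 and 196 FPKM in WT, 1KO and 1KO+1CI at day 0 and 11.1 to 25.5 FPKM at days 2 and 4. At day 0 the median difference of the 6 was 0.90 for 1KO against WT, with 2 higher by more than 1, and 0.29 for 1KO+1CI against 1KO, with 0 past 1, against -0.01 over all genes in both. The 4 primitive streak markers summed to 14.5, 74.1 and 87.1 FPKM at day 4, with T at 2.07, 29.2 and 27.2 FPKM, so both mutant libraries stood above WT at the day with the highest IAPLTR1_Mm level. The 5 primitive endoderm markers summed to 6.30, 12.8 and 19.1 FPKM at day 4, of which Dab2 made up 3.73, 8.18 and 11.6. Gata4, at 1.56, 0.96 and 2.12 FPKM, was lower in 1KO than in WT, while the others were higher. Of the 5, 1 was higher by more than 1 in 1KO than in WT, and 0 passed 1 in 1KO+1CI against 1KO. The 5 epiblast markers summed to 589, 540 and 396 FPKM at day 4, of which Dnmt3b made up 390, 328 and 226. Fgf5 had 48.3, 86.4 and 67.0 FPKM there. At day 2 the epiblast sum was 173, 357 and 379 FPKM, with 3 of 5 genes higher by more than 1 in 1KO than in WT. The part of these cell states in the IAP levels was not tested.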

How the data were processed

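The 9 libraries were 1 per line (WT, 1KO, 1KO+1CI) and day (0, 2, 4). The authors aligned reads to mm10 using HISAT2 after trimming by Trim Galore. They made FPKM values per gene and per repeat copy with HOMER (analyzeRepeats.pl), deposited as FPKM tables. Not given in the sources used here: software versions, strand setting and how multimapping reads were placed. Both tables hold 0 columns of other samples, and 21 gene entries without a gene symbol were left out.

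Families were compared as log2(mean FPKM over copies + 1) and copies as log2(FPKM + 1), a scale that understates changes of low copies. Each condition has 1 library, so these have no test. Line effects were tested with limma 3.58.1 in R 4.3.3 (line and day, eBayes with trend, Benjamini-Hochberg over 38385 copies), which was tested on simulated data. Steps were searched in all 38385 copies and found for 98.7% of them. Among the 32203 copies with FPKM over 0.2 in every library, they were found for 99.2%. Read ratios are depth-corrected with exact 95% Clopper-Pearson intervals, for copies with a step only. Depth came from genes with 1 annotated transcript (GENCODE M21), 492 of 1006 genes near the most frequent value. Intervals cover counting error only.

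Named copies were, per comparison (1KO against WT, 1KO+1CI against 1KO) and day, the 3 largest positive and 3 largest negative differences among copies with at least 1 FPKM in a library compared, and the copy with the highest mean in each family of at least 5 copies. The members, lists and rules were chosen with earlier results of these data known. Further copies of IAPEY4_I-int, IAPEy-int and IAPA_MM-int, the day 2 contrast and the counts of line order were chosen after seeing the data. Of the comparison families set, RLTREtn_Mm had 0 entries in the table. Alternatives were another pseudocount, a minimum FPKM, median-ratio scaling, another threshold, leaving out entries with shared names, the top copy of a family or 1 day, and limma without trend.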

Additional observations from a re-analysis of the deposited data

Results flagged for a closer look

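In 5 families the difference of 1KO+1CI from 1KO changed its sign between day 0 and day 4, with counting intervals that exclude no change at both days. On the scale of log2(mean FPKM + 1), IAPLTR1_Mm was at -1.37 at day 0 and 0.33 at day 4, IAPA_MM-int at -1.53 and 0.29, IAPLTR1a_Mm at -1.18 and 0.34, IAPLTR2_Mm at -0.26 and 0.25, and IAPEY4_LTR at -0.29 and 0.31. The difference between the days was not tested, since there is 1 library per line and day. In IAPEY4_LTR, day 0 had as many copies above as below their 1KO value (3 of 6) and day 4 had 5 of 6 above. The copy with the highest mean, dup5, had day 0 values of 7.97 FPKM in 1KO and 3.60 in 1KO+1CI. Without dup5 the day 0 difference was 0.10, a read ratio of 1.13 (0.751 to 1.70), so the change of sign in IAPEY4_LTR rests on that copy. IAPEY4_I-int was not among the 5 families, with a read ratio of 0.929 (0.848 to 1.02) at day 0. Without its top copy dup2 that ratio was 0.850 (0.761 to 0.949). At day 4 it was 1.40 (1.30 to 1.52) without dup2, so this family then met the same rule.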

How the results depend on the processing

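With a pseudocount of 0.1, counts of copies past a difference of 1 became 123 higher in 1KO than WT at day 2, and for 1KO+1CI against 1KO 15 higher at day 0, 15 higher and 19 lower at day 2, and 17 higher and 9 lower at day 4. With a threshold of 0.5 the same counts were 124, 12, 24 and 20, and 46 and 8. Median-ratio scaling over copies left 1 higher at day 2. Copies lower in 1KO than WT, 1, 2 and 0 at days 0, 2 and 4, became 15, 6 and 8 with a pseudocount of 0.1 and 15, 5 and 8 with a threshold of 0.5, and 1 at day 4 with scaling over copies. For 1KO+1CI against WT, alternatives added after seeing the data gave 80 and 128 higher at days 0 and 2 and 15, 6 and 5 lower at days 0, 2 and 4 with a pseudocount of 0.1, and 72 and 130, and 15, 9 and 5, with a threshold of 0.5. The other counts of these 3 comparisons stayed within 1.5 times. For limma, 1KO against WT had 0 calls without trend, and 1KO+1CI against WT had 43 with a pseudocount of 0.1, 0 without trend and 3 after median-ratio scaling. Leaving out a day gave 0 to 34 calls for 1KO against WT and 0 for 1KO+1CI against WT. The day 2 contrast gave 6 calls with a pseudocount of 0.1. The causes were not tested, beyond fewer residual degrees of freedom without a day.

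Of the family differences, IAPEy-int at day 0 (1KO against WT) reversed to -0.0153 without its higher copy and IAPEY3_LTR at day 4 (1KO+1CI against WT) to 0.15. Medians over copies moved 26 of 189 differences beyond counting error, a pseudocount of 0.1 moved 28, scaling over copies 3 and leaving out the top copy 7 of 171. Day is a term of the limma fit, which compares the lines within days. Beyond that, no paired analysis was possible because each line and day has 1 library. Depth limits copies at 1 to 3 reads, most of them in WT.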
